A study of Danio rerio with 12 samples.

Results

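At shield stage, when the zebrafish gastrula has just formed its organizer, combined knockdown (KD) of Ta and Tbx16 was accompanied by lower expression of genes of the presomitic mesoderm and the somite clock, led by *msgn1*, *mespaa*, *tbx16l* and *her1*. A second set of genes, most of them in none of the lists examined, was higher, led by *vldlr*, *foxj1b*, *slc16a3b* and *hif1an*. The comparison took the 6 arrays labelled as shield stage out of 12 in the series, 3 of control embryos against 3 of double morphants, over all 45220 array features.

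All embryos were of the AB strain, injected as one-cell embryos with morpholino oligonucleotides (MOs), antisense oligonucleotides that block the expression of a chosen gene. Control embryos received 0.75 pmol of a standard control MO, and double morphants received 0.5 pmol of *tbx16* MO with 0.25 pmol of *ta* MO. Each sample pooled about 200 whole embryos, so each value is an average over all tissues of the embryo, and fewer cells of a type cannot be told apart from less RNA per cell. The other 6 arrays hold the same treatments at 90% epiboly and were used to share one estimate of the spread and to compare the stages. Separate matings or injections behind the 3 samples are not stated in the labels, so p-values measure the spread between samples that may be technical repeats.

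T-box proteins are transcription factors (TFs) that bind DNA through a shared domain. Ta, the zebrafish Brachyury protein (*tbxta* in current nomenclature), and Tbx16 are made at the gastrula margin, where the mesoderm and endoderm arise. Both are known for their roles in mesoderm: Ta in the notochord and tail, Tbx16 in the movement and fate of the cells that form the trunk somites. Presomitic mesoderm is the unsegmented tissue in which oscillating *her* genes and Notch signals time the formation of somites.

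Values are log2 levels as deposited, and a log2 fold change is the double morphant mean minus the control mean. The 12 arrays had medians of 7.06 to 7.07, and arrays of the same shield group correlated at 0.966 to 0.980 across features. Of 27 cell type markers, 25 lay above the median feature, including *sox32* (endoderm), *krt4* (enveloping layer) and *gata2a* (ventral ectoderm). The exceptions were *sox17* and *dand5*, which mark endoderm and dorsal forerunner cells. Only *msgn1* and *tbxta* among these 27 passed the test at shield.

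In limma with Benjamini-Hochberg adjustment over all features, 126 features (0.279%) were lower and 93 (0.206%) higher in double morphants at an adjusted p under 0.05. At shield, controls and double morphants that shared a number varied together, and with the replicate number as a block the paired counts were 185 lower and 148 higher, with 210 of the 219 features shared. Without double morphant replicate 3 the count of higher features fell to 48. Of the 219 features, 148 belonged to 111 named genes and 71 had no gene name. Since 1 feature can carry a value that other features of its gene do not share, genes were graded by agreement: 24 genes passed on 2 or more features, 63 passed on 1 of several features, and 24 passed on their only feature. Among the 63, all features of 46 genes had the same sign and 17 genes had a feature of opposite sign. Of 8207 genes with 2 or more features, 13 (0.158%) were lower and 11 (0.134%) higher on at least 2. With the replicate block these counts were 17 and 17, and with the shield arrays fitted alone they were 5 and 3.

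**Figure D1:**
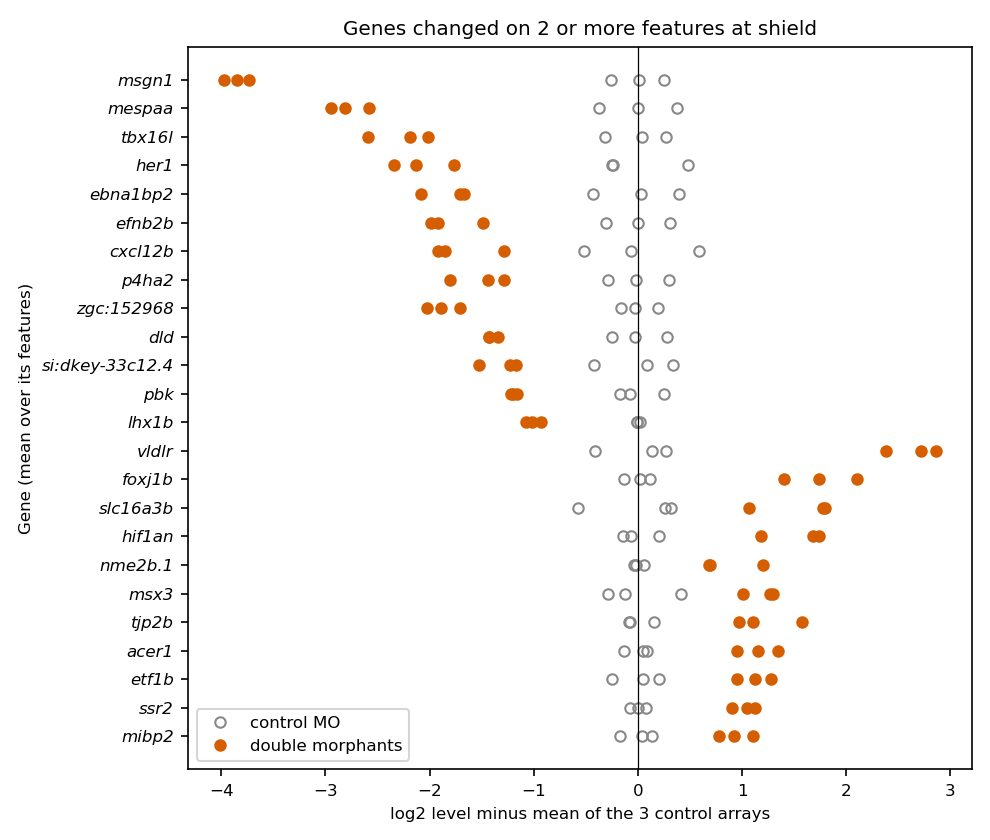
Log2 level of each of the 24 genes in each shield array, averaged over the gene's features and drawn relative to the mean of the 3 control arrays (open circles, control MO; filled circles, double morphants). In all 24 genes the double morphants lie on 1 side of the controls, as their selection required of the means; *msgn1* lies farthest to the left and *vldlr* farthest to the right.

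The targeted genes were read first. On its only feature, *tbxta* was at 9.99, 10.60 and 10.50 in the controls and at 11.48, 11.36 and 11.83 in the double morphants. All double morphants were above all controls, a log2 fold change of 1.19 ± 0.20 (SE, adjusted p = 0.0165). The call was lost without control replicate 1 or double morphant replicate 3. On the brightest of its 3 features, *tbx16* was at 10.11, 10.46 and 10.47 in the controls and at 10.66, 11.01 and 10.99 in the double morphants (0.54 ± 0.21, adjusted p = 0.443), and the groups overlapped on the other 2 features. A MO can act on splicing or translation, and where each array feature lies relative to the blocked site was not given in the sources used here, so these levels do not measure the loss of protein.

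*msgn1*, which encodes a basic helix-loop-helix (bHLH) TF that promotes differentiation of presomitic mesoderm, was lower on all 5 of its features. On the brightest it was at 12.20, 11.93 and 11.97 in the controls and at 7.45, 7.72 and 7.75 in the double morphants. The groups were far apart, a 21.1-fold difference (log2 fold change -4.40 ± 0.15, adjusted p = 1.27e-09), and the other 4 features gave -4.63, -4.05, -2.91 and -3.26.

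*mespaa*, a bHLH gene that marks the next somites to form, was at 9.95, 9.15 and 9.45 in the controls and at 5.95, 5.61 and 6.24 in the double morphants. It was 12.02-fold lower on this feature (-3.59 ± 0.22, adjusted p = 5.10e-07) and -1.97 on its second. The double morphant means of 5.93 and 5.55 lay below 6.56, the level under which features counted as dim. *tbx16l*, a relative of *tbx16* active in paraxial mesoderm, was at 10.92, 10.56 and 10.19 against 7.96, 8.27 and 7.95 (-2.50 ± 0.20, adjusted p = 1.20e-05). Both genes were lower in every double morphant than in any control on both of their features.

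*her1* and *dld* were also lower on 2 features each. *her1*, a cycling transcriptional repressor of the clock, was at 10.41, 9.71 and 9.47 in the controls and at 7.28, 7.10 and 7.37 in the double morphants (-2.61 ± 0.39, adjusted p = 0.00566). Its second feature, at -1.54, was past the threshold with all arrays but not without double morphant replicate 2 or 3. *dld*, the Notch ligand deltaD, passed on 2 of 3 features, and the brightest was at 8.21, 8.10 and 8.19 against 6.54, 6.93 and 6.97 (-1.35 ± 0.16, adjusted p = 9.03e-04). *her7*, the partner of *her1* in the clock, passed on 1 of 2 features (-1.46 ± 0.18, adjusted p = 9.98e-04) and was at -1.01 on the other. *hes6*, whose product pairs with the Her proteins, passed on 1 of 2 (-1.04), not without control replicate 1 or 3 or double morphant replicate 1 or 2, and on both with the replicate block. Of 28 measured genes of the Notch pathway 1, *dld*, passed (3.57% lower, beside 0.414% of all genes). With the block 2 passed, and the list median was 0.02.

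Of 24 measured members of the list for presomitic mesoderm and the somite clock, 12 were lower on at least 1 feature and 0 were higher, beside 0.414% of all 13286 genes lower and 0.421% higher by the same count. The median over the members was -0.82, beside 0.01 over all genes. The list was chosen with earlier results of these data known, so these shares are a description and not a test. Besides the genes above, the 12 lower members included *pcdh8*, the paraxial protocadherin (-2.68 ± 0.30 on its only feature), *foxc1a*, *ripply2*, *snai1a* and *aldh1a2*. *pcdh8* was at 10.48, 9.65 and 9.63 in the controls and at 6.88, 7.26 and 7.58 in the double morphants. The last 3 genes passed on 1 feature of several, and *aldh1a2*, the enzyme that makes retinoic acid, was at -1.85 on its dimmer feature and at -0.27 on its brighter one. *foxc1a* and *snai1a* each lost the call in 10 of the 12 fits that left out 1 array.

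The other 12 members did not pass without the block, and *her15.1* was the only one of them to pass with it. *tbx6*, a T-box gene of the presomitic mesoderm, was dim in both groups, at 6.67, 6.76 and 6.19 against 6.54, 6.16 and 6.51. *mespba* gave -0.17 and *ripply1* -0.87 (adjusted p = 0.329). *her15.1* gave -0.97 and -1.17 on its 2 features, with every double morphant below every control and adjusted p-values of 0.250 and 0.192, or 0.100 and 0.0466 with the block. On the brightest feature, every double morphant lay below every control in 784 of all 13286 genes. The 15 measured myogenic genes, whose products drive or build muscle, had medians over their features between -0.04 and 0.24 (-0.30 to 0.26 on the brightest feature). In limma 0 passed, also at an unadjusted p under 0.05 on the brightest feature (8.96% of all genes), and 0 by the methods' t-test. That is the Student's t-test the study names for quantitative data in general. For its arrays the study refers to an earlier one. The brightest features of *myod1*, *pax3a*, *myf6*, *six4b*, *myhz1.1* and *cdh15* had control means of 5.44 to 6.54. These lay below 6.56, the level under which features counted as dim, so a fall there could hardly be seen.

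**Figure D2:**
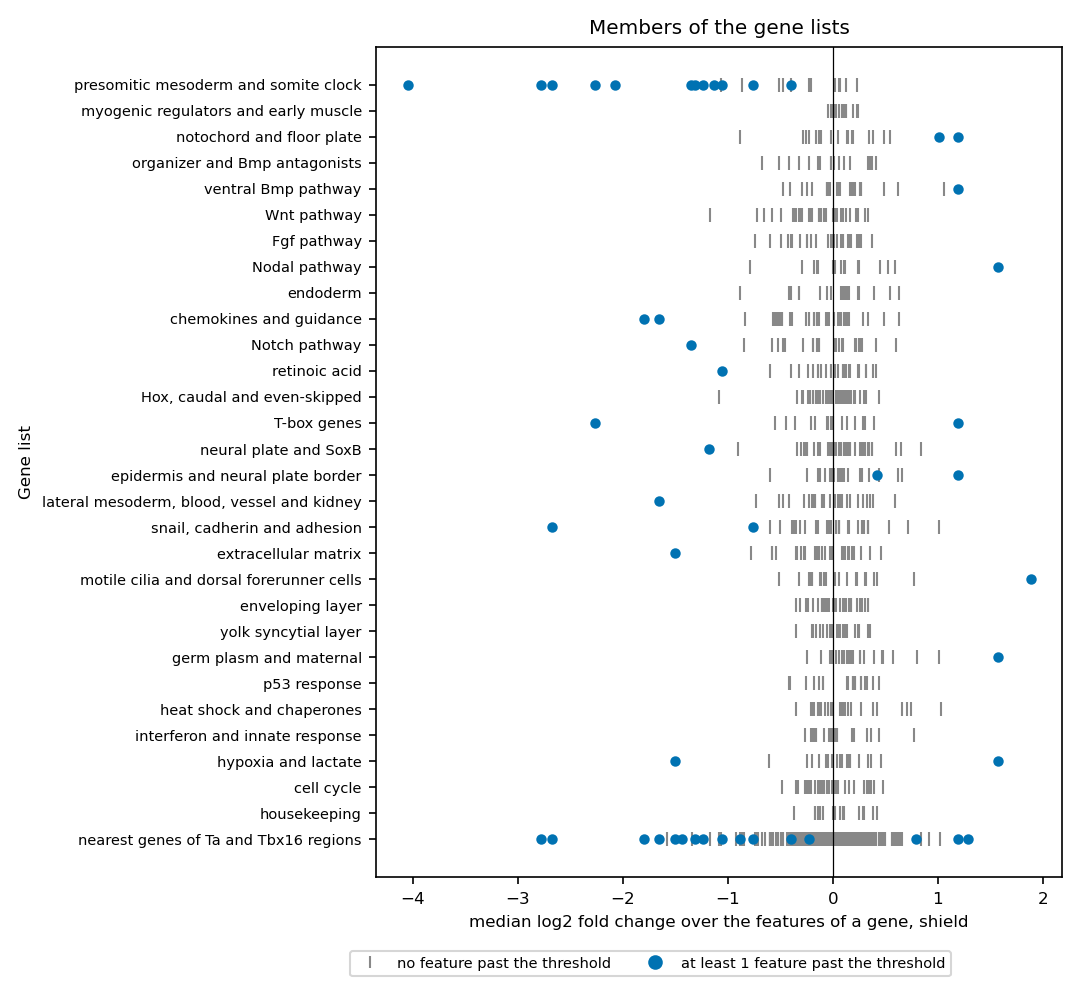
Median log2 fold change at shield over the features of each gene (horizontal axis) for the members of each gene list (vertical axis). Blue circles are genes with at least 1 feature past the threshold and grey ticks are the others; in the first list 12 of 24 members are blue and all are to the left of 0.

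Signals and surface proteins followed. *cxcl12b*, which encodes a chemokine that guides migrating cells through its receptor Cxcr4, was lower on all 4 features. Its brightest was at 10.34, 9.26 and 9.65 in the controls and at 8.36, 7.30 and 7.24 in the double morphants (-2.12 ± 0.30, adjusted p = 0.00352). The groups did not overlap on any of the 4, although 3 features lost the call in 3 to 10 of the 12 fits that left out 1 array. The paralog *cxcl12a* lay between -0.05 and 0.10 on its 4 features, all with overlapping groups. *efnb2b*, an ephrin ligand that acts at cell boundaries through Eph receptors, was at 11.82, 11.63 and 11.55 against 10.32, 10.09 and 9.96 (-1.55 ± 0.16, adjusted p = 2.28e-04) and gave -2.05 on its second feature. Of the 40 measured genes for chemokines and guidance these 2 passed (5% lower, beside 0.414% of all genes). *ephb3a*, an Eph receptor, gave -1.07 and -0.59 and did not pass.

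*p4ha2*, a prolyl 4-hydroxylase subunit that modifies collagen, was lower on all 3 features, and the brightest was at 10.45, 10.20 and 10.42 in the controls and at 8.92, 8.72 and 8.79 in the double morphants (-1.55 ± 0.15, adjusted p = 1.21e-04). Its dimmest feature lost the call without control replicate 1 or 3 or double morphant replicate 2 or 3. Of 33 measured matrix genes 1, *p4ha2*, passed (3.03% lower, beside 0.414% of all genes). *itgb5*, an integrin subunit, passed on 1 of 4 features (-1.08) with the other 3 at -0.89, -0.84 and -0.75, and *tmem231*, a protein of the ciliary transition zone, passed on 1 of 2 (-1.22 and -0.87). These 2 genes were picked after their values were seen.

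The remaining genes lower on several features have diverse roles. *ebna1bp2*, a nucleolar protein of ribosome assembly, was at 12.13, 11.37 and 11.83 in the controls and at 9.91, 9.67 and 9.98 in the double morphants (-1.93 ± 0.22, adjusted p = 6.59e-04). *pbk*, a mitotic kinase, was at 10.15, 9.77 and 10.09 against 9.03, 8.86 and 9.01 (-1.04 ± 0.16). Of 36 measured genes in the cell cycle list 0 passed. On the brightest feature, limma gave an unadjusted p under 0.05 for 2 of them (5.56%, beside 8.96% of all genes). The methods' t-test did so for 4 (11.1%, beside 6.38% of all genes). *lhx1b*, a LIM homeobox gene, was at 7.22, 7.17 and 7.01 against 6.0, 5.91 and 5.89 (-1.21 ± 0.15, adjusted p = 0.00113), the double morphants among the dim features of the array. *zgc:152968* was lower on all 3 features (-1.25, -2.93 and -1.44; the first not without control replicate 2 or 3 or double morphant replicate 1) and *si:dkey-33c12.4* on 2 of 3 (-1.33 and -1.46). Without control replicate 3, *cxcl12b*, *ebna1bp2*, *lhx1b* and *si:dkey-33c12.4* no longer passed on 2 features; without double morphant replicate 2, *cxcl12b*, *ebna1bp2* and *her1* did not, without double morphant replicate 3, *cxcl12b*, *her1* and *si:dkey-33c12.4* did not, and without double morphant replicate 1, *si:dkey-33c12.4* did not.

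Among the higher genes, *vldlr*, a receptor for lipoproteins and Reelin, passed on all 4 features. Its brightest was at 8.94, 9.61 and 9.53 in the controls and at 11.77, 11.72 and 12.03 in the double morphants, a 5.58-fold difference (2.48 ± 0.19, adjusted p = 5.24e-06). The other features gave 2.36, 3.03 and 2.75, with no overlap between the groups on any of them. *foxj1b*, a forkhead gene of the family that controls motile cilia, was at 6.51, 6.74 and 6.24 against 8.60, 8.01 and 8.77 (1.96 ± 0.21, adjusted p = 2.59e-04) and passed on all 3 features. Its paralog *foxj1a* did not pass (-0.08, -0.17 and -0.03), with controls of 7.63, 9.98 and 9.30 on the brightest feature. Of 22 measured genes for motile cilia and forerunner cells 1, *foxj1b*, passed (4.55% higher, beside 0.421% of all genes).

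*slc16a3b*, a transporter of lactate and related acids, was at 9.26, 10.03 and 10.05 in the controls and at 11.09, 12.02 and 11.65 in the double morphants (1.81 ± 0.28, adjusted p = 0.00689), and passed on 3 of 4 features, or on all 4 with the block (adjusted p = 0.0197 for the fourth). *hif1an*, which hydroxylates and restrains the hypoxia-inducible factor, was at 9.07, 9.34 and 9.45 against 10.67, 11.09 and 11.15 (1.69 ± 0.24, adjusted p = 0.00380) and gave 1.38 on its second feature. Of 24 measured genes for hypoxia and lactate, *slc16a3b* was higher, *p4ha2* was lower and 22 did not pass, with a list median of 0.07. Each direction thus held 4.17% of the list, beside 0.421% of all genes higher and 0.414% lower. *hif1an* is not a member of that list.

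*msx3*, a homeobox gene of the neural plate border and a target of Bmp signalling, was at 8.59, 7.96 and 7.57 in the controls and at 9.52, 9.13 and 9.25 in the double morphants (1.26 ± 0.24, adjusted p = 0.0347). The related *msx1a* gave 1.05 and 1.07 with overlapping groups and did not pass, but both features passed with the replicate block (adjusted p = 0.0135 and 0.0466). The remaining 26 of 28 measured Bmp genes did not pass, with a list median of 0.12. Without the block 3.57% of that list was higher, beside 0.421% of all genes. Of 24 measured genes for epidermis and neural plate border 2 were higher (8.33%), *msx3* and *dlx5a*, and 3 with the block, *tfap2c* being added. *dlx5a* gave 0.93 (limma adjusted p = 0.0370), a call lost in 8 of the 12 fits that left out 1 array, and -0.08 on its other feature. *tjp2b*, a tight junction scaffold, passed on all 3 features (1.19, 1.36 and 1.09) and *acer1*, an alkaline ceramidase, on 2 of 3 (1.31 and 1.19), or on all 3 with the block (adjusted p = 0.0502 for the third, or 0.0465).

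Of the rest, *ssr2*, a subunit of the complex at the protein translocation channel, passed on all 3 features (1.07, 1.16 and 0.85), *etf1b*, a translation termination factor, on both (1.12 and 1.12) and *mibp2* on both (0.86 and 1.01). *nme2b.1*, a nucleoside diphosphate kinase, passed on its 2 bright features (1.29 and 1.43) and gave -0.15 on the remaining one, which was dim. Its tandem paralog could share signal with it, which was not tested. With the shield arrays fitted alone, *vldlr*, *foxj1b* and *nme2b.1* still passed on 2 or more features. The other higher genes, *slc16a3b*, *hif1an* and *tjp2b* among them, did not. *vldlr*, *foxj1b*, *nme2b.1*, *slc16a3b* and *tjp2b* passed on 2 or more features in all 12 fits that left out 1 array. *mibp2* did so in 0 of these 12 fits, and *msx3* in 2. *acer1*, *etf1b*, *hif1an* and *ssr2* lost such support in 1 to 4 of them: *acer1* without control replicate 2 or 3 or double morphant replicate 1 or 3, *etf1b* without control replicate 1 or 2 or double morphant replicate 1 or 3, *hif1an* without control replicate 1 or 2 or double morphant replicate 2 or 3, and *ssr2* without double morphant replicate 3.

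Several genes of signalling interest were higher on 1 feature. *gdf3*, the maternal Nodal co-ligand, was at 10.21, 11.29 and 11.66 in the controls and at 12.47, 12.92 and 13.15 in the double morphants (1.80 ± 0.30, adjusted p = 0.0140), with a second feature at 1.34 that passed with the replicate block. The call was lost without double morphant replicate 2 or 3. *shhb*, a Hedgehog ligand of the midline, gave 1.36 ± 0.22 (adjusted p = 0.0110), a call lost without control replicate 2 or 3, and its other 2 features gave 1.01 (adjusted p = 0.191, or 0.0144 with the block) and 0.13. *insm1b*, a zinc finger gene of neuroendocrine cells, gave 1.78 and 0.81, and *shox*, a homeobox gene, gave 1.71 on its only feature; these 2 were picked after their values were seen. *zic2a*, a zinc finger gene of the neural plate, was lower on its only feature (-1.18 ± 0.18, adjusted p = 0.00802) among 44 measured neural genes, of which 43 did not pass. The share lower was 2.27%, beside 0.414% of all genes. The lowest value on a brightest feature in this list was -3.99, in a gene that did not pass. No gene of the list had a median over its features below that of *zic2a*.

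**Figure D3:**
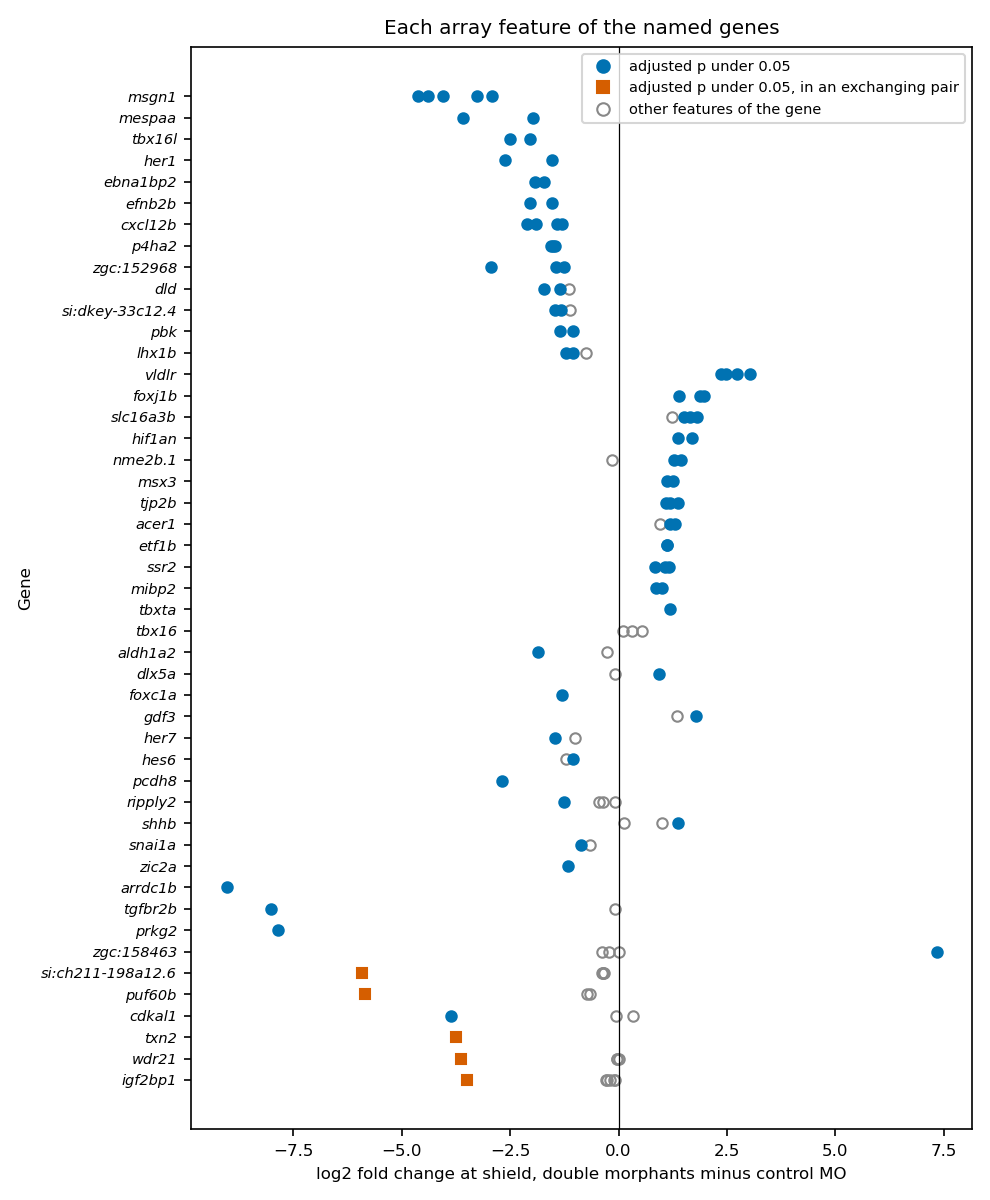
Log2 fold change at shield (horizontal axis) of every array feature of the named genes (vertical axis). Blue circles and orange squares passed the test, squares belong to exchanging pairs and open circles did not pass; the 5 features of *msgn1* and the 4 of *vldlr* lie on 1 side of 0, whereas *tgfbr2b* has 1 feature at -8.01 and another at -0.09.

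None of 34 Wnt, 28 Fgf, 17 organizer and 21 endoderm genes passed without the replicate block, and with it *wnt8a* and *foxa2* did. They had list medians of -0.10, 0.00, -0.02 and 0.10. On the brightest feature, limma gave an unadjusted p under 0.05 for 7, 4, 4 and 2 of them (20.6%, 14.3%, 23.5% and 9.52%, beside 8.96% of all genes), and the methods' t-test for 3, 2, 2 and 0 (8.82%, 7.14%, 11.8% and 0%, beside 6.38% of all genes). The largest shift among the Wnt genes was *wnt8a*, a margin ligand, at 10.49, 9.57 and 9.50 against 8.88, 8.88 and 8.29. The groups did not overlap, which on the brightest feature held in this direction for 784 of all 13286 genes. The difference passed only with the replicate block (-1.17 ± 0.26, adjusted p = 0.0909, or 0.0316 with the block). *cdx4*, a caudal homeobox gene of the posterior body, gave -1.18 and -0.98 on its 2 features (adjusted p = 0.197 and 0.178, or 0.0362 and 0.0577 with the block), and the other 47 measured Hox, caudal and even-skipped genes had medians over their features between -0.34 and 0.44, with *hoxc8a* at -1.16 on its brightest feature and at a median of -0.23. *etv4*, a target of Fgf signalling, gave -0.71 and -0.78, *chrd*, a Bmp antagonist of the organizer, gave -0.67, and *foxa2*, a forkhead gene of endoderm and midline, gave -0.96 and -0.81 with overlapping groups (adjusted p = 0.309 and 0.466, or 0.0268 and 0.0930 with the block).

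Lists for other cell types and for stress had few calls. Of 29 enveloping layer, 22 yolk syncytial layer, 21 p53, 27 heat shock, 22 interferon and 18 housekeeping genes, 0 passed in either direction (1 heat shock gene, *hspb8*, was higher with the replicate block), and their medians were 0.02, 0.04, 0.19, 0.07, 0.02 and 0.04. On the brightest feature, limma gave an unadjusted p under 0.05 for 0, 0, 4, 3, 0 and 1 of them, and the methods' t-test for 0, 2, 1, 4, 1 and 1, beside 8.96% and 6.38% of all genes. These were 19.05% and 4.76% of the p53 list and 11.1% and 14.8% of the heat shock list. In the p53 list 14 of 21 medians were above 0, beside 6960 of 13286 over all genes. In the germ plasm and maternal list 20 of 24 medians were above 0, and 1 gene, *gdf3*, passed (4.17% higher, beside 0.421% of all genes).

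A further list held the genes nearest to regions bound by both Ta and Tbx16 in the study's chromatin immunoprecipitation at mid-gastrulation, of which 440 of 889 names were matched to the array. Nearness does not show regulation. Of these 440 genes 13 were lower and 3 higher on at least 1 feature (2.95% and 0.682%, beside 0.414% and 0.421% of all genes), with a list median of -0.05. With the replicate block 24 were lower and 5 higher, beside 82 and 86 of all genes. Without the block, the lower genes of the list included *igf2bp1*, whose only called feature belonged to an exchanging pair described below. The higher ones included *tbxta*, a targeted gene. Of the 13 genes lower on 2 or more features 5 were on the list (*mespaa*, *efnb2b*, *cxcl12b*, *p4ha2* and *zgc:152968*), and of the 11 higher ones 0 were, while the list took 3.31% of all genes. *msgn1* and *tbx16l* were not among the matched names. The array's own symbol for *tbx16l* is *tbx6*, however, and the gene now named *tbx6* was on the list. Which gene that name stood for in the list was not checked.

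At 90% epiboly, which has its own control arrays, 73 of the 219 features passed in the same direction as at shield and 0 in the opposite direction. Both stages shared the estimate of the spread of each feature. The share of all features that passed at 90% epiboly is not given here, so these counts are a description without a baseline. The difference between the stages, tested as an interaction, passed for 130 of all features (0.287%) and for 46 of the 219. Of the 24 genes the interaction passed for 2. The 219 features and 24 genes were chosen on their shield change, which is part of this difference. Their counts are therefore a description and not a test. The log2 fold change of *msgn1* was larger in size at 90% epiboly, -5.58 against -4.40 on its brightest feature (difference -1.18 ± 0.22, adjusted p = 0.0359). On 4 of its 5 features this test passed. On the brightest, the control mean was 12.03 at shield and 13.09 at 90% epiboly, and the double morphant mean 7.64 and 7.51. On the next brightest these were 11.91 and 12.81 in the controls and 7.28 and 6.30 in the double morphants.

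*efnb2b* was at 11.57, 11.71 and 11.55 in the controls and at 6.92, 6.56 and 6.65 in the double morphants at 90% epiboly on its brighter feature, a log2 fold change of -4.90 against -1.55 at shield (difference -3.35 ± 0.23, adjusted p = 1.98e-06). On its dimmer feature the change was -0.90 at 90% epiboly against -2.05 at shield, so the features did not agree on which stage had the larger change. *vldlr* and *foxj1b* gave 3.16 and 2.26 at 90% epiboly, against 2.48 and 1.96 at shield, and the interaction did not pass for either. *lhx1b* gave -0.23 and *msx3* 0.09 at 90% epiboly on their brightest features, but the interaction did not pass for them (adjusted p = 0.137 and 0.641).

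**Figure D4:**
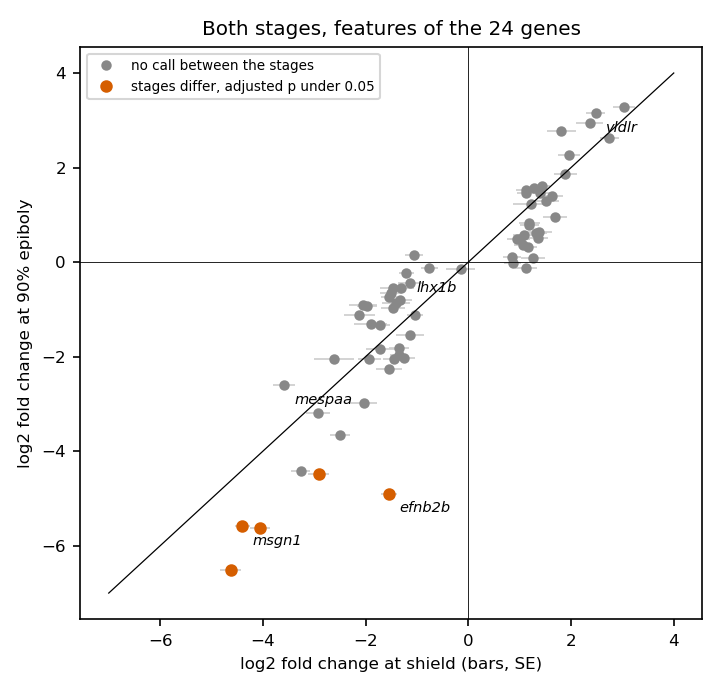
Log2 fold change at shield (horizontal axis, bars are SE) and at 90% epiboly (vertical axis) for every feature of the 24 genes, with the line of equality. Orange points, 4 features of *msgn1* and 1 of *efnb2b*, passed the test of the difference between the stages and lie below the line.

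The largest changes of all were on single features. Of 40 called features with a change over 3 on the log2 scale, 21 had no gene name and 4 belonged to *msgn1*, and 32 of the 40 passed the interaction test. The 40 were picked on their shield change, which is part of the difference between the stages. The count of 32 is therefore a description and not a test. *arrdc1b*, named on 1 feature, was at 15.34, 15.41 and 13.46 in the shield controls and at 5.47, 5.57 and 6.06 in the double morphants (-9.04), and all 6 arrays at 90% epiboly lay between 5.49 and 5.99. *prkg2*, a protein kinase named on 1 feature, was at 13.35, 13.51 and 13.42 against 5.52, 5.53 and 5.64 (-7.86), with 5.45 to 5.78 at 90% epiboly. *tgfbr2b*, a receptor for TGF-beta, had 1 feature at -8.01 and 1 at -0.09. In these 3 genes only the shield control arrays were high.

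Some single-feature changes came in pairs that traded levels. Rows 84 or 85 apart held 14 pairs in which both features changed by over 1 on the log2 scale in opposite directions and by a like amount (a sum under 0.5 times the smaller change), and 9 pairs in which both changed by over 2. Taken singly, 84 rows held 6 pairs and 85 rows held 8, or 4 and 5 for changes over 2. At the other single distances up to 200 rows the median count was 1 and the highest 8, at 170 rows. The count at 85 rows was thus no higher than that at 170. Since 170 is 2 times 85, that distance may not be unrelated to the pattern, which was not tested. For changes over 2 the highest count at the other distances was 3, also at 170 rows. In the 9 larger pairs, the double morphant mean of 1 feature lay within 0.0242 to 1.1 of the control mean of its partner, and in 7 of them 1 of the 2 features had no gene name. In 8 of the 9 the arrays at 90% epiboly were nearer to the shield controls on both features. Of the 219 called features 23 lay in such pairs, 11 lower and 12 higher, and none of them supported the 24 genes above.

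The genes named on features in the larger pairs had other features that did not follow. *si:ch211-198a12.6* was at -5.92 on the paired feature and between -0.38 and -0.34 on its other 4, *puf60b*, a splicing factor, at -5.85 against -0.65 and -0.73, and *wdr21* at -3.64 against values between -0.04 and 0.00. *igf2bp1*, an RNA-binding protein, was at -3.49 on the paired feature and between -0.29 and -0.07 on the other 5. *txn2*, the mitochondrial thioredoxin, has 1 named feature, which fell by 3.74 in such a pair. *cdkal1* (-3.87), *pdcl3* (-2.89) and *zgc:158463* (7.34) also stood alone among their features without belonging to a pair at the distances counted above. The *zgc:158463* feature, however, lay 170 rows from that of *arrdc1b* (rows 33636 and 33806). Their changes were opposite and of like amount by the same rule. From shield controls to double morphants, the mean of *zgc:158463* rose from 8.23 to 15.57 and that of *arrdc1b* fell from 14.74 to 5.70. These 2 features thus also traded levels. *ube2c*, a ubiquitin-conjugating enzyme of mitosis, was at -3.15 on 1 of 3 features and at -0.28 and -0.44 on the others. Unlike the features above, this one was also lower at 90% epiboly (-1.99, limma adjusted p = 0.0107), and its interaction did not pass. The cause of these patterns was not tested.

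**Figure D5:**
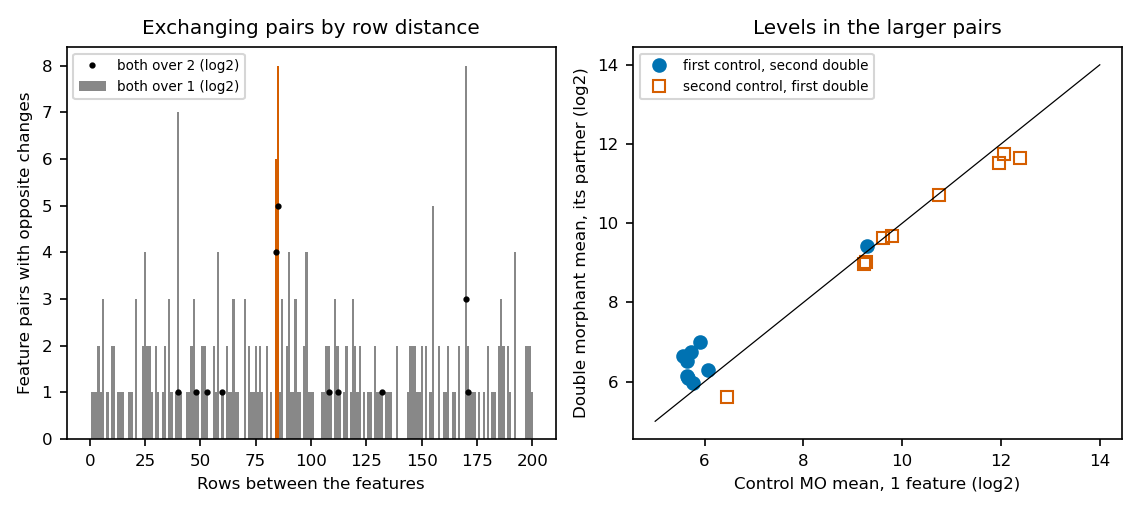
Left, number of feature pairs with opposite changes of like size by the number of rows between them (bars, both over 1 on the log2 scale, orange at 84 and 85 rows; black points, both over 2). Right, control MO mean of 1 feature against the double morphant mean of its partner in the 9 larger pairs, with the line of equality, near which the points lie.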

How the data were processed

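The authors deposited log2 values for 45220 features of a single-colour Agilent zebrafish array, already normalized; the method was not given in the sources used here, and no scanner files were used. Features were named through the platform's gene table and RefSeq symbols: 26855 had 1 symbol (24105 through an accession, 2733 through a symbol or synonym, 17 with the array's symbol kept, *dld* among them) and 18365 none, giving 13286 genes, 8207 with 2 or more features. No coordinates were used. The number of arrays limits the precision.

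One mean per group was fitted over all 12 arrays with limma 3.58.1 (R 4.3.3), with Benjamini-Hochberg adjustment over all features and a threshold of 0.05. A gene was called on 2 or more features if at least 2 passed in 1 direction and none in the other. A list member counts as lower or higher if at least 1 feature passed that way and none the other; a single value in the text is that of the brightest feature unless stated. The script was tested on simulated data. Same-numbered shield samples correlated in their deviations from the group means at 0.342, 0.348 and 0.297. At 90% epiboly the values were 0.197, 0.0765 and 0.414. The main fit did not use these numbers as pairs. A fit with the number as a block is given where it changes a call of a list described above or of a feature whose value is printed. Lists not described above can also change with the block.

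Named genes were the genes called on 2 or more features, the targeted genes, members of 29 gene lists, and the 10 largest single-feature changes; others are said to be picked. Members and lists were chosen with earlier results of these data known, and the features of 1 gene are not replicates. Python 3.11.15 drew the figures.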

Additional observations from a re-analysis of the deposited data

Results flagged for a closer look

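In each of the following genes the change at 90% epiboly differed from that at shield by limma's interaction test at an adjusted p under 0.05; each value subtracts the log2 fold change at shield from the one at 90% epiboly. Among genes whose features agreed in sign at shield it was -1.18 for *msgn1* and -3.35 for *efnb2b*. For *rbm38*, an RNA-binding protein lower on 1 of 2 features at shield (on both with the replicate block), it was -2.46. For *efnb2b* and *rbm38* only the brighter feature passed this test, and the dimmer one gave 1.14 and -1.02. On single features whose gene had no second agreeing feature it was 8.90 for *arrdc1b*, 7.93 for *tgfbr2b*, 7.75 for *prkg2*, -6.73 for *zgc:158463*, 3.89 for *cdkal1* and 2.76 for *pdcl3*. On features of exchanging pairs it was 5.85 for *si:ch211-198a12.6*, 5.46 for *puf60b*, 3.67 for *txn2*, 3.74 for *wdr21*, 3.15 for *igf2bp1*, 3.19 for *cd99l2*, 2.47 for *vps13a*, -2.99 for *cst14b.1*, -1.56 for *ccn4a* and 1.43 for *tmem222a*. In the exchanging pairs and single features the change at 90% epiboly was between -0.39 and 0.61. All features listed here had passed at shield, and that shield change is part of the difference tested.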

How the results depend on the processing

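Quantile normalization, median centring, cyclic loess, removal of dim features, a trended robust prior and the block across stages kept the counts run within 1.5 times those given; the count of exchanging pairs was not run with dim features removed. Without dim features *mespaa* and *lhx1b* no longer passed on 2 features, and with the block across stages *msx3* did not. With the shield arrays alone, 54 features were lower and 30 higher, and 5 and 3 genes on 2 or more features. The 5 were *msgn1*, *mespaa*, *tbx16l*, *zgc:152968* and *dld*, and the 3 were *vldlr*, *foxj1b* and *nme2b.1*. The lower genes that lost this support were *her1*, *ebna1bp2*, *efnb2b*, *cxcl12b*, *p4ha2*, *si:dkey-33c12.4*, *pbk* and *lhx1b*. The higher ones were *slc16a3b*, *hif1an*, *msx3*, *tjp2b*, *acer1*, *etf1b*, *ssr2* and *mibp2*. With the paired replicate block, 185 features were lower and 148 higher, and 17 and 17 genes on 2 or more features. Array weights gave 57 higher features and 7 such genes. The methods' t-test gave 1432 lower and 1286 higher features unadjusted, with 98 and 85 genes, and 8 and 6 features with 0 and 0 genes after Benjamini-Hochberg adjustment; limma gave 4053 features at an unadjusted p under 0.05. Averaging the features of each gene called 50 genes lower and 53 higher, including all 13 and 11 of the genes called on 2 or more features. Leaving out 1 array gave 93 to 149 lower and 48 to 91 higher features, 9 to 14 and 5 to 10 genes on 2 or more features, 104 to 167 features that differed between stages and 14 to 19 exchanging pairs. A limit of 2 in place of 1 on the log2 scale left 9 of 14 exchanging pairs. Leaving the exchanging features out, chosen after seeing the data, kept the counts within 1.5 times, with 111 features that differed between stages. No named gene that passed changed direction in any of these settings. The cause of the moved counts was not tested, except that leaving out arrays or fitting the shield arrays alone uses fewer samples.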
